A study of Mus musculus with 2 samples.

Results

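The mitosis genes are a list of 40 mouse genes whose transcripts accumulate in dividing cells, chosen by name. Of these, 39 had a row in both count tables, out of 25507 genes listed, and Kif20b was not analysed here. Their UMIs (unique molecular identifiers, which count tagged RNA molecules) were summed per cell and compared across cells of the embryonic mouse pancreas grouped by the raw UMIs of marker genes.

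A dividing cell copies its DNA in S phase and then builds the machinery of mitosis in G2. Cyclin A and cyclin B activate the kinase CDK1, and condensins and topoisomerase II compact and untangle the chromosomes. Kinetochores attach the chromosomes to a spindle of microtubules. The anaphase-promoting complex, with CDC20 and UBE2C, targets the cyclins for destruction as the cell leaves mitosis. In the developing pancreas the bipotent trunk epithelium proliferates, and some of its cells switch on the transcription factor NEUROG3 (NGN3), are known to leave the cell cycle, and become hormone cells. Acinar cells, which make digestive enzymes such as CPA1, arise from tip cells that also proliferate.

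The study profiled single cells of the wild-type E14.5 mouse pancreas by inDrop, in 2 libraries named wt1 and wt2, called library 1 and library 2 here. Both the low and the high gate of a flow sort on an Ngn3eGFP reporter went into each library, with no record of which cell came from which gate, so the gates can set the class sizes. No treatment, other genotype or age was included. Nothing in the labels ties the libraries to separate animals. The p-values rest only on how class levels vary between these 2 libraries beyond a shift common to all classes. This variation may be technical.

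Library 1 held 535 barcodes and 1910588 UMIs, and library 2 held 1100 barcodes and 3425983 UMIs, with medians of 3244 and 2828.5 UMIs per barcode. After filters and removal of called doublets, 515 and 1070 cells were used, and 3 barcode names occurred in both libraries. Cells with at least 3 Spp1 UMIs and fewer than 3 of Neurog3 and Chgb were taken as trunk cells (106 and 211 cells), since Spp1 marks the trunk and ducts. Neurog3-high cells (113 and 180) had at least 3 Neurog3 UMIs, and Chgb-high cells (95 and 150) had at least 3 UMIs of Chgb, a granule protein of hormone-forming cells. A small class with both (10 and 16 cells) was kept apart. Gcg-positive cells (29 and 56, at least 5 Gcg UMIs, glucagon), insulin-high cells (39 and 99, at least 20 Ins1 and Ins2 UMIs), Cpa1-high cells (9 and 85, at least 5 Cpa1 UMIs) and Csf1r-positive cells (7 and 35, at least 2 UMIs of this macrophage receptor) were set apart first. In all, 106 and 234 cells met none of these rules and 1 and 4 met more than one. The 7 macrophage markers other than Csf1r summed to 5759 and 6159 CPM (counts scaled to 1000000 UMIs) in Csf1r-positive cells and to between 0 and 122 CPM in the other classes.

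Promoter sequence was examined because most members read lower in Neurog3-high than in trunk cells, though only 13 of 36 tested were called. 2 short elements are known from promoters of mitosis genes: CCAAT, bound by NF-Y, and TTTGAA or its variant TTCGAA, the cell cycle genes homology region (CHR) through which MuvB complexes act. In RefSeq promoters on GRCm38.p6, 35 of the 39 members matched. Within 250 bases before the start site, on either strand, 28 of the 35 held CCAAT, against 37.5% of 27025 genes. TTTGAA or TTCGAA stood in 16 of the 35, against 19.6% of the genes, and both kinds in 15, against 7.001%. These are letter matches and not measured sites. The 120 bases before the start are shown 5′ to 3′ for 5 members that were lower in Neurog3-high than in trunk cells, of which Tubb4b rose again in Chgb-high cells, with every match to either element, on either strand, in capitals; they were chosen after their values were seen.
Hmgb2, chr8:57511723-57511842, plus strand: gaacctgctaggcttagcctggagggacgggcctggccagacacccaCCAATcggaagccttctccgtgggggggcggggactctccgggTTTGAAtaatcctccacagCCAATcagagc
Top2a, chr11:99024190-99024309, minus strand: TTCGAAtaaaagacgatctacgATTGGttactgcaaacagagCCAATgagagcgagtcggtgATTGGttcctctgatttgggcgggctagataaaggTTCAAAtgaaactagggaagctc
Mki67, chr7:135716380-135716499, minus strand: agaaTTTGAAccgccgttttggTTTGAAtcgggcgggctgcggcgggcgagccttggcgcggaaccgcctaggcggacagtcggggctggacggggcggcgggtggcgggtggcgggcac
Kif11, chr19:37376262-37376381, plus strand: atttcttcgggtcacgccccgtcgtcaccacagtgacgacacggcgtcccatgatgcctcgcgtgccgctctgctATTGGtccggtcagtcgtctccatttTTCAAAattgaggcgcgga
Tubb4b, chr2:25224703-25224822, minus strand: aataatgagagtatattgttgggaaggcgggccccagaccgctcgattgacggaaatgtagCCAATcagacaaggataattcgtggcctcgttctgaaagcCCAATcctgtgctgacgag
The Hmgb2, Top2a, Mki67 and Kif11 windows each hold a TTTGAA or TTCGAA element, and the Tubb4b window holds CCAAT only, with a TTTGAA 198 bases before the start, outside the bases shown. Of the 13 members called lower in Neurog3-high cells 11 matched, and 8 of these held TTTGAA or TTCGAA, while Aspm, Kif23 and Tacc3 held neither. Of the members tested and not called 21 matched, and 8 of these held one of the pair.

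The summed level was higher in trunk than in Neurog3-high cells, and higher in these than in Chgb-high, Gcg-positive and insulin-high cells, in both libraries. Trunk cells held 42.2 and 44.7 mitosis-gene UMIs per 10000 UMIs in library 1 and library 2 (mean 43.5 ± 1.78, SD, n = 2). Neurog3-high cells held 20.8 and 21.7 per 10000 (21.2 ± 0.624). Chgb-high cells were at 14.2 and 12.3, Gcg-positive cells at 12.7 and 15.3, and insulin-high cells at 14.1 and 14.1. The libraries of trunk and Neurog3-high cells do not overlap, nor do those of Neurog3-high cells and the 3 later classes, while Chgb-high, Gcg-positive and insulin-high cells lay within each other's spread. Cpa1-high cells stood highest at 63.1 and 62.4 per 10000, although only 9 of them were in library 1. Csf1r-positive cells gave 18.5 from 7 cells and 42.4 from 35 cells, and the cells with both Neurog3 and Chgb gave 8.30 and 28.3, so neither class has a settled level. In the latter, 1 cell of library 2 held 74 of the 137 mitosis-gene UMIs. With 2 libraries a class, an exact permutation test over libraries could not reach 0.05, and no test was run on these sums.

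**Figure D1:**
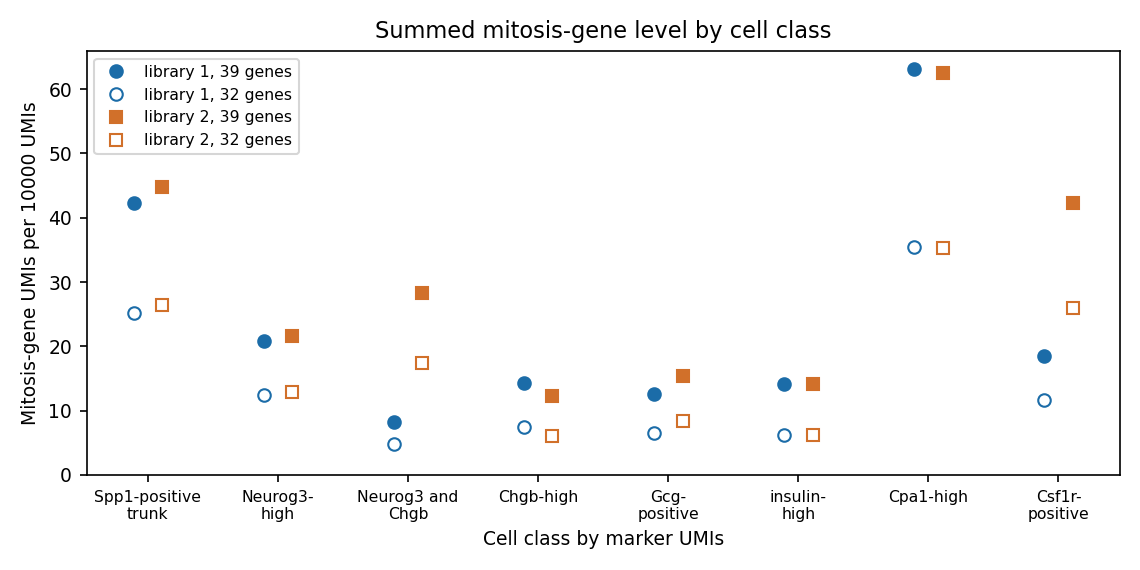
Mitosis-gene UMIs per 10000 UMIs (y axis) in 8 cell classes (x axis); circles are library 1 and squares library 2, filled for all 39 genes and open for the 32 left without 7 broadly expressed members. Trunk cells sit at 42.2 and 44.7, Neurog3-high cells at 20.8 and 21.7, and the 2 hormone classes and Chgb-high cells between 12.3 and 15.3.

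The share of cells with at least 5 mitosis-gene UMIs gave another order until depth and gene choice were matched. By raw UMIs, 56.6% and 55.9% of trunk cells, 36.3% and 27.8% of Neurog3-high cells, 41.1% and 32% of Chgb-high cells and 61.5% and 41.4% of insulin-high cells reached 5. Insulin-high cells were thus as often over the line as trunk cells in library 1. They were also deeper, at medians of 4467 and 3522 UMIs per cell against 3697 and 2675 in trunk cells. When every cell with at least 2000 UMIs was thinned to 2000, the shares were 38 of 95 cells and 46.5% of 155 cells in the trunk (with 11 and 56 shallower ones left out), 16.5% and 12.7% in Neurog3-high cells (16 and 38 left out), 13.6% and 11.3% in Chgb-high cells (14 and 35 left out) and 19.4% and 12.5% in insulin-high cells (3 and 19 left out). After thinning, trunk cells were above these 3 classes in both libraries.

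A few members filled the raw share of insulin-high cells. Tubb4b, a beta tubulin of spindles and other microtubules, made up 4.89% and 5.72% of the mitosis-gene UMIs of trunk cells but 32.9% and 27.9% of those of insulin-high cells. Hmgb2, a chromatin protein that bends DNA, made up 18.5% and 20.9% in trunk cells and 6.10% and 7.82% in insulin-high cells. Without Tubb4b, Hmgb2 and the other 5 members known for broad expression (Anp32e, Smc4, Tacc3, Cks1b and Cks2), and with cells thinned to 2000 UMIs, 26.3% and 34.8% of trunk cells and 12.4% and 9.86% of Neurog3-high cells still reached 5. In Chgb-high cells this share was 2.47% (2 of 81 cells) and 0 of 115 cells, which allows up to 2.61%. In insulin-high cells it was 0 of 36 cells, which allows up to 8.33%, and 1.25% (1 of 80). Gcg-positive cells kept 1 of 25 cells and 7.14% (3 of 42) over the line. Intervals and limits cover counting error only.

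**Figure D2:**
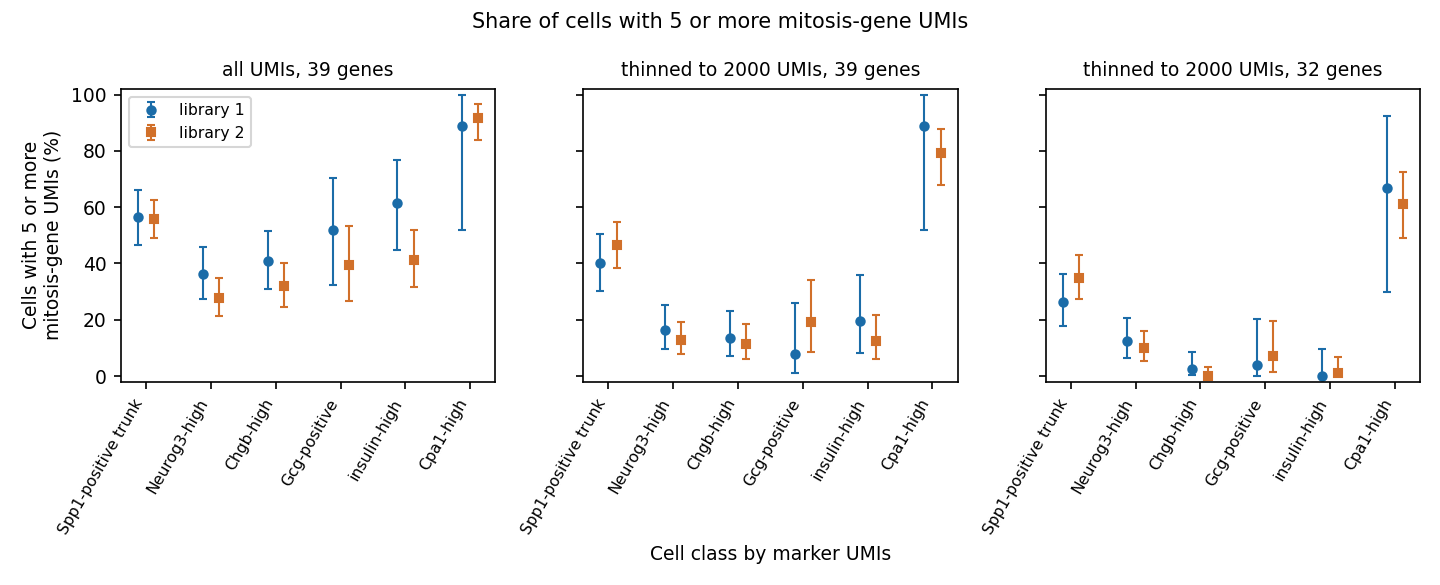
Share of cells with at least 5 mitosis-gene UMIs (y axis, percent) by cell class (x axis), with exact 95% binomial intervals; circles are library 1 and squares library 2. Insulin-high cells are at 61.5% and 41.4% by all UMIs (left), 19.4% and 12.5% after thinning (middle), and at 0 and 1.25% with the 32 remaining genes (right), while trunk cells stay at 26.3% and 34.8% there.

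High scores were most frequent in Cpa1-high cells and rare in the hormone classes. Cells with at least 20 mitosis-gene UMIs made up 21.7% and 23.7% of trunk cells, 7.96% and 7.22% of Neurog3-high cells, 1.05% and 0.667% of Chgb-high cells, and 77.8% (of 9 cells) and 55.3% of Cpa1-high cells. These shares were not matched for depth, and Cpa1-high cells were the deepest class, at medians of 6209 and 4401 UMIs. After thinning to 2000 UMIs, 8 of 9 and 79.2% of 72 Cpa1-high cells held at least 5 mitosis-gene UMIs. Without the 7 broad members as well, 6 of 9 and 61.1% did. Of insulin-high cells 0 of 39 and 1.01% reached 20, and of Gcg-positive cells 0 of 29 and 0 of 56. Csf1r-positive cells gave 0 of 7 in library 1 and 28.6% of 35 in library 2. Of the cells that met no rule, 7.55% and 11.5% reached 20. The highest cell in the trunk held 183 mitosis-gene UMIs. As a gauge of free RNA in droplets, Spp1 read 61.1 and 32.2 CPM in Chgb-high cells against 2767 and 4506 CPM in trunk cells. The part of free RNA in the low mitosis-gene level of Chgb-high cells was not tested.

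Within the trunk, most members were concentrated in the same cells. For each member, trunk cells were split by the summed UMIs of the other members. For Mki67, the proliferation antigen Ki-67, 98.8% of its 166 trunk UMIs lay in the 178 of 317 cells with at least 5 UMIs of the others, cells that held 63.1% of all UMIs. Ube2c, the E2 enzyme of the anaphase-promoting complex, had 96.0% of 249 UMIs there, and Birc5 (survivin, of the chromosomal passenger complex) 96.6% of 89. Of the broadly expressed members, Tubb4b had 83.3%, Cks1b, a small subunit that binds CDK1, 81.3%, and Anp32e, a histone chaperone for H2A.Z, 79.3%. Smc4 had 85.8% and Hmgb2 85.5%, but Cks2 had 94.1% and Tacc3 92.9%, beside Top2a at 92.8%. The cells over the line change with the member left out. For Hmgb2 they were 149 cells with 52.4% of all UMIs, and for Cks1b 168 cells with 59.7%. Raw shares therefore do not rank the members by concentration. Nuf2 (75.0% of 24 UMIs) and Ttk (69.2% of 26) are not among the broad members and had lower raw shares than any broad member. Ndc80, an outer kinetochore subunit, stood at 63.6%, with 11 UMIs. These shares describe cells of 2 libraries and share their depth.

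The first tested step was from trunk to Neurog3-high cells. Mitosis genes were lower in Neurog3-high cells: edgeR's quasi-likelihood test on UMIs summed per library and class, over 10635 genes with Benjamini-Hochberg adjustment, called 13 of 36 tested members lower and 0 higher. Of all genes tested, 3.14% were called lower and 4.1% higher. The median member log2 fold change was -1.05, against -0.02 for all genes, and it was -1.11 in library 1 and -1.05 in library 2 alone. Of the 36 members, 31 were below 0 in both libraries. Cenpe, Ndc80 and Ttk had too few UMIs to be tested. By DESeq2, 4 of the 13 were called (Hmgb2, Mki67, Tubb4b and Ccna2), with lower marker thresholds 7 were, and with higher ones 19, the 13 among them. The shares of all genes called under these settings are not given here, so the counts are not compared.

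Among chromosome and chromatin proteins, 4 of 5 tested members fell. Hmgb2 read 781 and 933 CPM in trunk cells and 403 and 361 CPM in Neurog3-high cells, a log2 fold change of -1.15 (SE 0.20, adjusted p = 8.94e-07 by edgeR). Mki67 read 133 and 185 CPM against 36.1 and 56.1 CPM, a log2 fold change of -1.75 (SE 0.35, adjusted p = 5.06e-05). Top2a, topoisomerase II alpha, read 216 and 312 CPM against 144 and 108 CPM, and the condensin subunit gene Smc4 read 138 and 140 CPM against 49.0 and 84.1 CPM. In each of these 4 genes both trunk libraries were above both Neurog3-high libraries. Anp32e did not follow them, at 115 and 145 CPM in the trunk and 139 and 129 CPM in Neurog3-high cells (log2 fold change 0.04, SE 0.28).

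Of the cyclins, CDK1 and its CKS partners, 3 of 6 fell. Ccna2, which encodes cyclin A2 of S phase and mitotic entry, read 143 and 154 CPM in the trunk and 59.3 and 39.2 CPM in Neurog3-high cells (log2 fold change -1.60, SE 0.35, adjusted p = 0.000355 by edgeR). Cdk1, the kinase that drives mitosis, went from 118 and 119 CPM to 64.5 and 35.5 CPM, and Cks1b from 258 and 180 CPM to 90.3 and 112 CPM. For Ccna2, Cdk1 and Cks1b the libraries of the 2 classes did not overlap. Ccnb1, the main mitotic cyclin B, was not called (83.5 and 97.4 CPM against 67.1 and 69.2 CPM, log2 fold change -0.40, SE 0.36, adjusted p = 0.678).

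Spindle, cytokinesis and anaphase genes followed in part. Of 11 spindle members 4 were called lower: Tubb4b, Tacc3, Aspm and Kif11. Tubb4b read 206 and 256 CPM in the trunk and 69.7 and 120 CPM in Neurog3-high cells (log2 fold change -1.25, SE 0.26, adjusted p = 7.55e-05 by edgeR). Tpx2, which activates aurora A on the spindle, read 78.6 and 107 CPM against 49.0 and 65.4 CPM and was not called. Of 3 tested cytokinesis members, Kif23, a motor of the central spindle, fell from 120 and 94.1 CPM to 38.7 and 31.8 CPM, and Ect2, which activates RhoA at the cleavage furrow, was not called (73.7 and 71.0 CPM against 33.5 and 31.8 CPM). Ube2c was called, at 334 and 187 CPM in the trunk and 87.7 and 153 CPM in Neurog3-high cells (log2 fold change -1.01, SE 0.29, adjusted p = 0.0107), with a fall of 1.90 on the log2 scale in library 1 and of 0.28 in library 2. Its partner Cdc20 read 86.0 and 67.7 CPM against 23.2 and 56.1 CPM and was not called.

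None of the 4 tested centromere and passenger members or the 5 tested kinases was called in this step, although their median log2 fold changes were -0.79 and -0.74. With higher marker thresholds Cenpa, Birc5, Plk1 and the aurora A kinase gene Aurka were called lower. Cenpa, the centromere's histone H3 variant, read 147 and 119 CPM against 61.9 and 89.7 CPM. Birc5 read 111 and 72.6 CPM against 64.5 and 37.4 CPM. Plk1, a kinase of mitotic entry and exit, read 59.0 and 102.4 CPM against 59.3 and 39.2 CPM, and Bub1b, of the spindle checkpoint, 66.3 and 72.6 CPM against 36.1 and 24.3 CPM. Of these, only Plk1 lacked a lower value in both libraries. Nuf2, a kinetochore subunit, was the member with the highest log2 fold change (0.45, SE 0.53, 24 UMIs in all trunk cells).

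The next step was from Neurog3-high to Chgb-high cells, which shares the Neurog3-high sums with the first. Here 8 of 36 members were called lower and 2 higher by edgeR, against 5.95% and 4.41% of all genes, with a median member log2 fold change of -1.11 and 0.0074 for all genes. The anaphase-promoting complex partners were both lower. Ube2c went from 87.7 and 153 CPM to 30.6 and 15.0 CPM (log2 fold change -2.57, SE 0.41, adjusted p = 8.15e-08), and Cdc20 from 23.2 and 56.1 CPM to 6.11 and 4.29 CPM (log2 fold change -2.98, SE 0.70, adjusted p = 0.000588). Hmgb2 went from 403 and 361 CPM to 131 and 124 CPM. Top2a, Cdk1, Cks2 and the aurora B kinase gene Aurkb were also called lower, as was the checkpoint kinase gene Bub1, which gave 18 UMIs in Neurog3-high cells and 1 in Chgb-high cells (ratio 0.0646 per UMI, counting interval 0.00155 to 0.409). By DESeq2, 4 lower and 1 higher members were called.

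Tubb4b and Tpx2 rose in this step. Tubb4b read 247 and 253 CPM in Chgb-high cells against 69.7 and 120 CPM in Neurog3-high cells (log2 fold change 1.31, SE 0.26, adjusted p = 2.3e-05 by edgeR), which is near its trunk values of 206 and 256 CPM. Tpx2 read 122 and 142 CPM against 49.0 and 65.4 CPM (log2 fold change 1.14, SE 0.35, adjusted p = 0.0145 by edgeR). In both genes the libraries of Chgb-high and Neurog3-high cells did not overlap. Set beside the trunk, which is outside this step, 33.7% and 33.3% of Chgb-high cells held a Tpx2 UMI against 19.8% and 19.9% of trunk cells. These shares were not matched for depth. By DESeq2 the adjusted p of Tpx2 was 0.131. Reads of Tubb4b may be split with those of near-identical beta tubulins, and its exons overlap Fam166a on the other strand, with the use of strand not given in the sources used here. Anp32e kept a like level in all 5 classes from trunk to insulin-high cells, between 115 and 161 CPM.

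**Figure D3:**
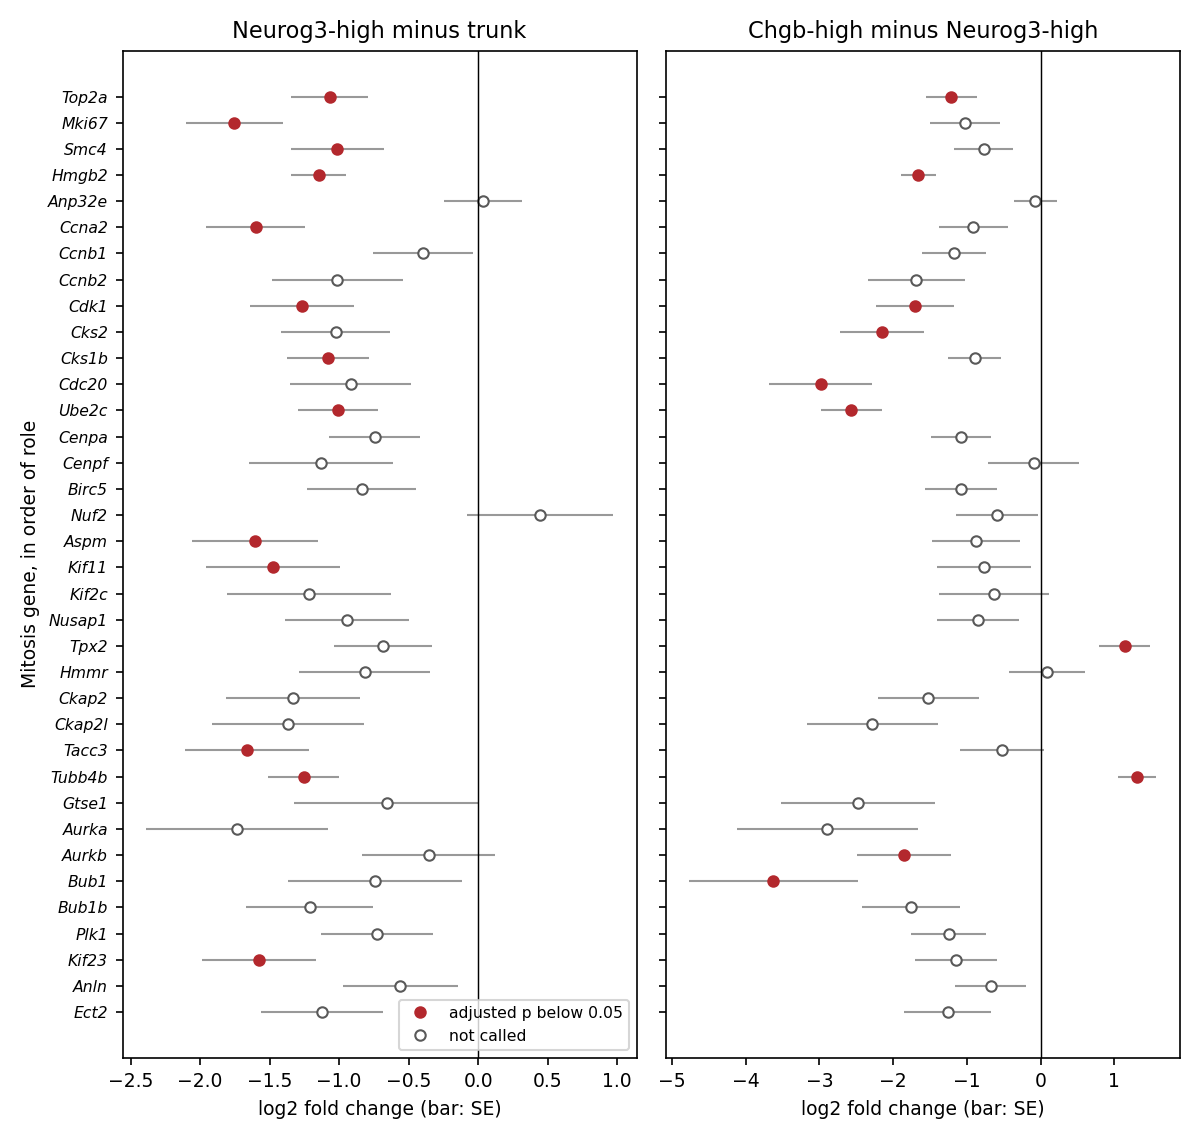
Log2 fold change (x axis) with its SE for the 36 tested mitosis genes (y axis, ordered by role) in Neurog3-high minus trunk cells (left) and Chgb-high minus Neurog3-high cells (right); filled points passed an edgeR adjusted p of 0.05. On the left 13 genes passed, each below 0; on the right 8 passed below 0 and Tpx2 and Tubb4b above 0.

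**Figure D4:**
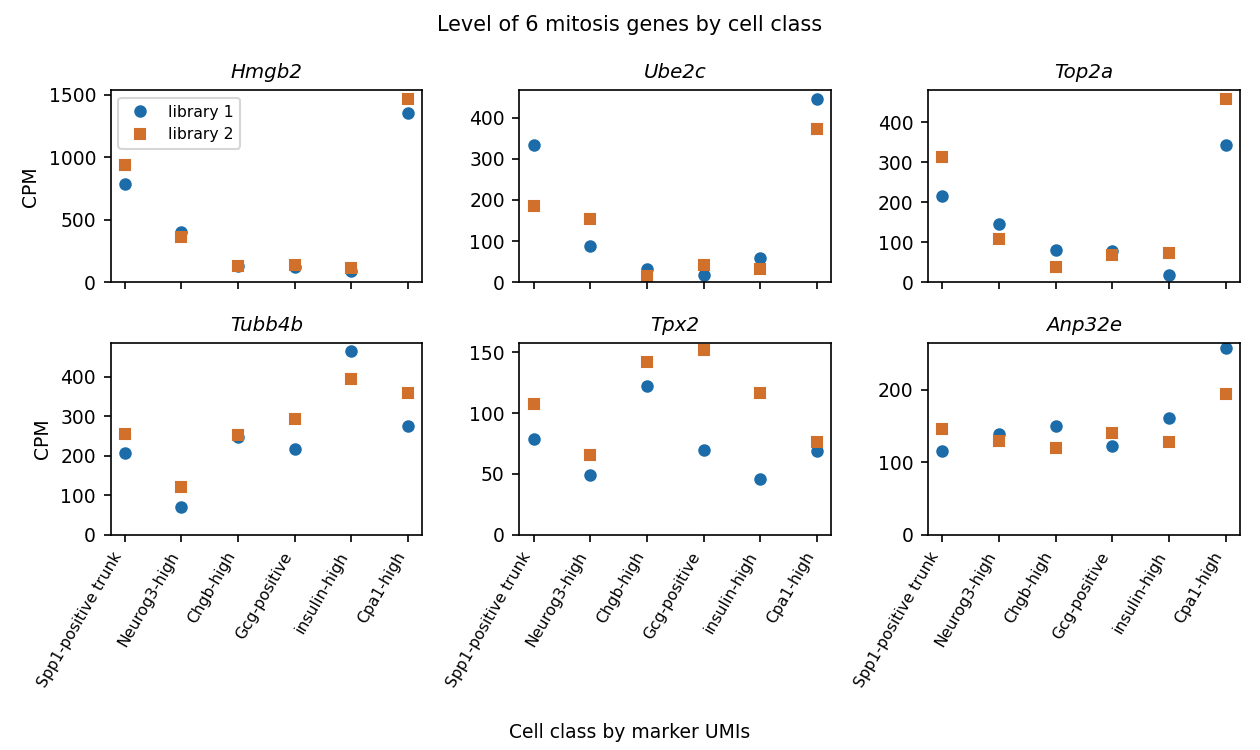
CPM (y axis) of 6 mitosis genes in 6 cell classes (x axis), circles for library 1 and squares for library 2. Hmgb2, Ube2c and Top2a are lower in Chgb-high than in trunk cells in both libraries, Tubb4b is at 465 and 394 CPM in insulin-high cells, and Anp32e stays between 115 and 161 CPM outside Cpa1-high cells.

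From Chgb-high to hormone cells few members changed. In insulin-high against Chgb-high cells, edgeR called 0 of 36 members lower and 2 higher, against 0.724% and 1.66% of all genes, at a median of 0.010. Tubb4b rose from 247 and 253 CPM to 465 and 394 CPM (log2 fold change 0.86, SE 0.24, adjusted p = 0.016). Gtse1, a spindle-associated protein gene, gave 2 UMIs in Chgb-high and 15 in insulin-high cells (ratio 11.3 per UMI, counting interval 2.62 to 101.7). By DESeq2 neither was called, and without the library term in edgeR neither was. In Gcg-positive against Chgb-high cells edgeR called 0 lower and 0 higher, against 0.498% and 0.527% of all genes, with 0 lower and 3 higher at an unadjusted p under 0.05 and none by DESeq2.

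For cells with both Neurog3 and Chgb against Neurog3-high cells, edgeR called 0 members, against 1.52% lower and 0.78% higher of all genes, with 4 lower at an unadjusted p under 0.05 and 0 by DESeq2. The median was -0.32, or -0.02 with the 4 members at 0 UMIs set to the bound of 3 UMIs over both libraries, and the all-gene median was -0.27. This class rests on 26 cells.

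Whether the fall follows Neurog3 itself was described over all cells outside the hormone, Chgb, Cpa1 and Csf1r classes. Over cells with 0, 1 to 2, 3 to 5, 6 to 11 and at least 12 Neurog3 UMIs, the mitosis-gene level was 36.3, 31.1, 25.6, 17.9 and 19.6 per 10000 UMIs in library 1. In library 2 it was 37.9, 33.8, 35.7, 16.4 and 12.7 per 10000. Spp1 divided this range in both libraries except at its top. With 0 Neurog3 UMIs, cells with at least 3 Spp1 UMIs held 41.7 and 47.2 per 10000, against 29.9 and 31.0 with 0 Spp1 UMIs. At 1 to 2 Neurog3 UMIs these levels were 44.0 (26 cells) and 38.1 (55 cells) against 13.3 (28 cells) and 23.7 (23 cells). At 3 to 5 Neurog3 UMIs, cells with at least 3 Spp1 UMIs held 41.4 (12 cells) and 50.04 (33 cells) per 10000, and cells with 0 Spp1 UMIs held 15.1 (22 cells) and 10.4 (19 cells). At 6 to 11 Neurog3 UMIs, cells with at least 3 Spp1 UMIs were at 30.4 (9 cells) and 22.6 (19 cells). Those with 0 Spp1 UMIs were at 11.8 (24 cells) and 12.5 (48 cells). At 12 or more Neurog3 UMIs, cells with at least 3 Spp1 UMIs were at 18.6 (10 cells) and 10.97 (14 cells), against 17.6 (18 cells) and 13.0 (23 cells) with 0. Single cells weigh on these levels: without the cell richest in mitosis genes, the Spp1 cells at 3 to 5 Neurog3 UMIs were at 29.1 and 43.9 per 10000, and those at 12 or more at 13.8 and 8.03. The share of Spp1 cells with at least 5 mitosis-gene UMIs was 66.7% and 48.5% at 3 to 5 Neurog3 UMIs and 60% and 21.4% at 12 or more, so in library 1 it did not follow the level. The depth of Spp1 cells was higher too, at medians of 3474 and 2977 UMIs against 2557.5 and 2099 in cells with 0 Spp1 UMIs at 3 to 5 Neurog3 UMIs, and its part was not tested; Spp1 detection also rises with depth. The split was chosen with values known and was given no test.

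**Figure D5:**
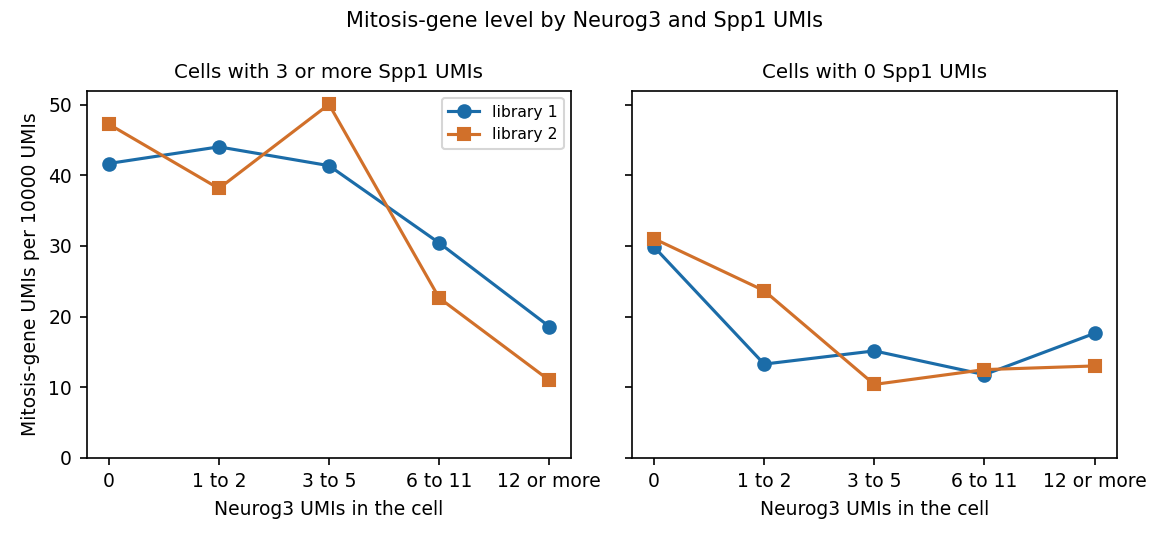
Mitosis-gene UMIs per 10000 UMIs (y axis) by Neurog3 UMIs in the cell (x axis), for cells with at least 3 Spp1 UMIs (left) and with 0 (right); circles are library 1 and squares library 2. At 3 to 5 Neurog3 UMIs the left panel stands at 41.4 and 50.04 and the right at 15.1 and 10.4, and at 12 or more both panels lie between 10.97 and 18.6.

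Trunk cells with 1 or 2 Neurog3 UMIs against those with 0 gave 0 of 34 tested members called by edgeR and 0 by DESeq2, with 1 lower and 0 higher at an unadjusted p under 0.05. Of 9481 genes tested 0% were called lower and 0.0105% higher, and the median member log2 fold change was -0.16. A single UMI or a pair is a weak sign of expression here. Such counts were held by 24.5% and 26.1% of trunk cells (medians of 3697 and 2675 UMIs) and by 3 of 7 and 17.1% of Csf1r-positive cells (medians of 2724 and 2970 UMIs), which should lack Neurog3. In Chgb-high, Gcg-positive, insulin-high and Cpa1-high cells the shares were 11.6%, 27.6%, 20.5% and 22.2% (2 of 9 cells) in library 1. Of these, only Gcg-positive cells exceeded the trunk there. In library 2 they were 16.7%, 10.7%, 11.1% and 5.88%, each below the trunk share. How much of the trunk counts is free RNA was not tested, and the split was not read as Neurog3 expression.

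Cpa1-high and Csf1r-positive cells missed the minimum of 10 cells in library 1 and could be set against the trunk only at lower marker thresholds. The trunk rule changed too, to at least 2 Spp1 UMIs and fewer than 2 of Neurog3 and Chgb (105 and 192 cells). With at least 3 Cpa1 UMIs (12 and 88 cells), edgeR called 5 of 36 members higher and 0 lower than in the trunk, against 3.84% and 2.96% of all genes. These were Hmgb2 (1269 and 1493 CPM against 769 and 940 CPM), Plk1 (214 and 198 against 48.4 and 99.97 CPM), Cdk1, Ccna2 and Anp32e, and the median member log2 fold change was 0.73. At 1 Csf1r UMI the class grew to 26 and 68 cells, but the 19 and 33 cells with a single Csf1r UMI held only 28.6 and 999.7 CPM of the 7 other macrophage markers. Members are therefore not compared between macrophages and the trunk.

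Other cell cycle genes were read beside the members in the step from trunk to Neurog3-high cells. The share of all genes called was 3.14% lower and 4.1% higher there. Of 70 tested further mitosis genes, 15 fell and 1 rose (Calm2, a calmodulin gene, log2 fold change 0.57), with a median of -0.74. The lowest adjusted p-values belonged to the alpha tubulin genes Tuba1b (log2 fold change -1.50) and Tuba1c (-1.47) and the histone variant gene H2afx (-1.47). Of 55 S phase genes 9 fell and 0 rose by edgeR, among them Pcna, the sliding clamp of DNA polymerase (226 and 348 CPM against 90.3 and 78.5 CPM), Tk1 and Mcm5. By DESeq2 the adjusted p was 0.00891 for Pcna, 0.133 for Tk1 and 0.0915 for Mcm5. Of 23 transcription and entry regulators 0 were called.

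Cell cycle brakes and D cyclins moved in both directions in the same step. Of 21 tested, 5 rose and 4 fell, at a median log2 fold change of 0.19. Gadd45a, a stress-induced inhibitor of CDK1, rose from 59.0 and 111 CPM to 730 and 835 CPM (log2 fold change 3.20, SE 0.24, adjusted p = 9.28e-30 by edgeR). Cdkn1a, which encodes the CDK inhibitor p21, rose from 229 and 216 CPM to 557 and 1028 CPM (1.84, SE 0.21), and the antiproliferative gene Btg2 by 1.55. Ccnd1, Ccnd2, Cdk6 and Plk2 fell, of which the first 3 drive G1. From Neurog3-high to Chgb-high cells Gadd45a and Cdkn1a were lower again, by log2 fold changes of -3.20 and -2.44, and 11 of the 21 fell and 1 rose, against 5.95% and 4.41% of all genes. Among 13 interphase actin and tubulin controls 4 rose in the first step, including the neuronal beta tubulin gene Tubb3 (19.7 and 18.2 CPM to 230 and 202 CPM), while Tubb4b fell.

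Trunk cells with at least 5 mitosis-gene UMIs were then compared with those with 0 or 1, over genes outside the list (60 and 118 against 14 and 42 cells). Of 5220 genes edgeR called 11 higher and 3 lower (0.211% and 0.0575%), and 6 of the 11 were among 41 tested further mitosis genes. Tubb5 read 1456 and 1793 CPM against 572 and 591 CPM (log2 fold change 1.54, SE 0.20, adjusted p = 4.08e-07), and the histone gene Hist1h2ap 537 and 764 CPM against 124 and 45.5 CPM. Cdca8 (borealin, of the passenger complex) gave 163 UMIs against 2, a ratio of 16.3 per UMI (counting interval 4.45 to 136). Insm1, a transcription factor of endocrine precursors, read 61.0 and 61.0 CPM in the high cells and 74.6 and 296 CPM in the low ones. Insm1, Clps and Tmsb4x were the 3 called lower, and none of them was called when high and low cells were chosen after thinning to 2000 UMIs. The sums tested there were unthinned, from 38 and 71 high and 25 and 38 low cells. In the main split high cells were deeper, with medians of 4184 and 3041 UMIs against 2804 and 1944.5. S phase genes summed to 50.1 and 61.0 per 10000 UMIs in the high and 35.1 and 34.6 in the low cells, with 0 of 36 tested called by edgeR. By DESeq2 2 genes were called in all.

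Neurog3-high cells were split in the same way, into 41 and 50 cells with at least 5 mitosis-gene UMIs and 24 and 53 cells with 0 or 1. Spp1, Sox9 and Bicc1, which are known from trunk and ductal cells, were higher in the cells rich in mitosis genes. Of 5220 genes edgeR called 21 higher and 1 lower (0.402% and 0.0192%), and 5 of the 21 were among the 41 tested further mitosis genes (Tuba1b, Tubb5, H2afx, Cdca8 and Kif20a). Spp1 read 1302 and 1900 CPM in the high cells and 498 and 876 CPM in the low ones (log2 fold change 1.22, SE 0.15, adjusted p = 3.37e-08). Sox9, a transcription factor of pancreatic progenitors, read 473 and 601 CPM against 190 and 217 CPM (log2 fold change 1.40, SE 0.27, adjusted p = 0.00152). Bicc1, which encodes an RNA-binding protein of ductal epithelium, read 540 and 414 CPM against 73.2 and 147 CPM. For Spp1, Sox9 and Bicc1 both libraries of the high cells were above both of the low cells. The metallothionein genes Mt1 and Mt2, whose proteins bind zinc, were also called, with Mt2 at 1441 and 1498 CPM against 454 and 473 CPM. Tmsb4x, which encodes the actin-binding thymosin beta 4, was the gene called lower, at 1669 and 1452 CPM against 2724 and 2420 CPM. Sst, the somatostatin gene, passed with 249 UMIs in the high cells of library 1 but only 6 in those of library 2, and its direction differed between the libraries.

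The high cells were again deeper, at medians of 4008 and 3635.5 UMIs against 2720.5 and 2243 UMIs. When high and low cells were chosen after thinning to 2000 UMIs, 44 genes were called higher and 16 lower. Spp1, Sox9, Bicc1, Mt1, Mt2 and Tmsb4x were among them. The sums tested there were unthinned, from 20 and 18 high and 38 and 61 low cells. On the main split, DESeq2 called 13 higher and 0 lower, with adjusted p-values of 0.0263 for Sox9 and 0.162 for Tmsb4x. Neurog3 itself stood at 2231 and 2507 CPM in the high cells and at 2885 and 3599 CPM in the low ones. Spp1 was not part of the rule for Neurog3-high cells, and the genes named here were picked after their values were seen. The trunk and duct markers Krt19, Krt18, Anxa2, Hes1 and Cldn10 are not given for this split. Spp1, Sox9 and Bicc1 therefore do not stand for trunk markers in general.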

How the data were processed

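The deposited tables hold raw UMI counts per gene and cell barcode, 1 per library, made by the authors with alignment to GRCm38, per the submitters' processing notes; aligner, counter, annotation and strand setting: not given in the sources used here. Every deposited column was used. Cells with at least 1000 UMIs, 500 genes and at most 20% mitochondrial UMIs were kept (528 and 1081), and Scrublet in scanpy 1.11.5 removed 13 and 11 doublets.

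Classes were set by raw marker UMIs. UMIs were summed per library and class with at least 10 cells in each, and the sums of the main classes entered 1 quasi-likelihood fit (edgeR 4.0.16 under R 4.3.3). Separate fits served the trunk split by Neurog3 UMIs, each change of marker thresholds and the splits by mitosis-gene UMIs. All had class and library as terms, TMM factors and edgeR's own filter on low counts, unless an alternative is named. Library is a block because both classes of a comparison come from the same 2 libraries. P-values were adjusted by Benjamini-Hochberg over all genes at 0.05. DESeq2 1.42.0 was the second tool, and 5 members had no adjusted p by it in the first comparison. CPM are plain, counts scaled to 1000000 UMIs of the sum, and not scaled by length. Binomial intervals are exact at 95%.

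Members, lists, thresholds and tests were chosen with earlier results of these data known. Named were 2 members per role with the highest trunk CPM and any member called against the rest, 3 genes per other list with the lowest adjusted p, and called genes of the last comparison; all others were picked after their values were seen. Members sharing reads with paralogs (Tubb4b, Cks1b, Cks2, Hmgb2, Anp32e) are uncertain, as are those whose exons overlap another gene: Ccna2, Cdc20, Nusap1, Ube2c, Plk1, Ckap2l, Tacc3 and Top2a in GENCODE M21. The fitting script was tested on simulated counts.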

Additional observations from a re-analysis of the deposited data

How the results depend on the processing

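Of 434 alternative values for 62 single-gene results, 346 kept direction and call, 88 kept direction but lost the call, and 0 changed sign. For Neurog3-high against trunk cells, 13 members were called in the main analysis, 4 by DESeq2, 7 with lower marker thresholds, 11 without the replicate block and 11 without a filter, all among the 13, and 19 with higher thresholds, the 13 and 6 more; the median was -1.09 with median-of-ratios size factors and -1.11 to -1.05 with either library left out. For Chgb-high against Neurog3-high cells 10 were called, 5 by DESeq2 and 8 without the block, with medians of -1.39 to -0.99 by single library. For insulin-high against Chgb-high cells 2 were called, 0 by DESeq2, 0 without the block, 0 with lower thresholds, and 1 each without a filter, with doublets kept and with higher thresholds; the median was 0.050 with median-of-ratios factors and -0.020 to 0.015 by single library. The medians by single library spanned -0.11 to 0.42 for Gcg-positive cells, -2.22 to -0.21 for cells with both Neurog3 and Chgb, and -0.30 to -0.01 for trunk cells with 1 or 2 against 0 Neurog3 UMIs. No test was possible with 1 library left. Shares of all genes called under these alternative settings are not given here, so member counts do not show whether calls changed in general.

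Shares of cells with at least 5 mitosis-gene UMIs, as means of the libraries, moved most. For trunk, Neurog3-high, Chgb-high and insulin-high cells in turn they were 56.3%, 32.03%, 36.5% and 51.5% by all UMIs, 43.2%, 14.6%, 12.4% and 16.0% thinned to 2000 UMIs, and 36.5%, 12.6%, 5.98% and 6.12% thinned to 1500. A line of 3 UMIs gave 74.0%, 54.7%, 65.3% and 78.4%, and a line of 8 gave 41.8%, 17.4%, 14.7% and 27.0%. Without the 7 broad members the shares were 36.2%, 14.7%, 10.6% and 13.5%, and with thinning to 2000 as well, added after seeing the data, 30.6%, 11.1%, 1.23% and 0.625%. Lower and higher marker thresholds moved the trunk share to 53.5% and 59.6%. Leaving out either library gave 55.9% to 56.6%, 27.8% to 36.3%, 32% to 41.1% and 41.4% to 61.5%.

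For trunk cells of high against low mitosis-gene UMIs, 14 other genes were called. It was 28 with cells split after thinning but unthinned sums tested, 5 without the block and 2 by DESeq2. It was 40 when cells were split by the 32 narrower members, a choice added after seeing the data. The same split of Neurog3-high cells called 22 genes, and 60, 14, 13 and 57 under those 4 choices in turn. The cause of these differences was not tested. With 2 libraries, a member that was not called, or was under the filter, may still have changed.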
